A study of Mus musculus with 6 samples.

Results

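Rab GTPases are small membrane-bound switches that direct vesicle traffic. A guanine nucleotide exchange factor loads a Rab with GTP on its own membrane, the GTP-bound form recruits effectors such as tethers and motors, and a GTPase-activating protein returns it to the inactive form, which is extracted from the membrane until the next round. Each Rab marks certain compartments, from the ER and Golgi through endosomes to the lysosome, and hepatocytes rely on them for secretion, for uptake from the blood and for transport to the bile canaliculus. The genes described here are all those with a single symbol in the platform annotation made of Rab, a number and at most 1 letter. They number 50 among 12393 genes measured, with 95 probe sets in all. The 6 other symbols that begin the same way (Rab11fip5, Rab26os, Rab3gap2, Rab3il1, Rab3ip and Rab5if) name regulators, effectors or other transcripts and were left out.

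Liver RNA of 6 mice was measured, each on its own array. All mice were labelled Ppara KO on a C57 background and were 1 month old. An adenoviral vector carrying TFEB, which switches on lysosomal and autophagy genes, was given to 3 of them, and the other 3 were not injected. No group received a vector without TFEB, so responses to TFEB and to the injection cannot be told apart. The promoter that drives TFEB in the vector is not given in the sources used here, and both groups lack Ppara per the labels, so nothing here describes livers with that receptor.

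Facts of the whole series were as follows. Levels are log2 values normalized by RMA, a method that sets all arrays to one distribution, and each gene is represented by its probe set with the highest mean, called the lead probe set. Arrays correlated at 0.998 to 0.999 among not-injected livers, at 0.995 to 0.998 among injected livers and at 0.989 to 0.993 across the groups, over all genes. The Tfeb probe set gave a log2 change of 0.04 ± 0.07 (SE) and that of Ppara 0.13 ± 0.05 (limma adjusted p = 0.777 and 0.149); the labels name neither the species of the vector's TFEB nor the deleted part of Ppara, so neither checks the labels. Alb, the albumin gene that marks hepatocytes, was at 15.011 to 15.032 in not-injected and 14.937 to 14.955 in injected livers. The groups were apart by a small change of -0.08 ± 0.04 that was not called (limma adjusted p = 0.263). Of 17 macrophage and Kupffer cell markers, 12 rose and 0 fell, where 9.99% of all genes rose and 7.92% fell. The summed linear level of these markers was 10721 to 11079 in not-injected and 14046 to 16548 in injected livers. Of 15 endothelial markers only Stab2 and Lyve1 rose, by 1.42 and 0.89, while the median change was -0.01 and 9 of the 15 had a change below 0 (sums of 5434 to 5702 and 5906 to 6771). Of 7 hepatocyte markers 1 fell and 6 had a change below 0 (sums of 140530 to 140730 and 133040 to 138180). Of 7 pancreatic acinar markers 4 fell (1914 to 2041 and 1149 to 1268). In the B and plasma cell list (2020 to 2336 and 989 to 1618), the erythroid list (1488 to 1528 and 999 to 1052) and the cholangiocyte list (379 to 394 and 335 to 346), 1 gene each fell. None of these sums overlapped between groups, while those of the stellate cell, T and NK cell and neutrophil lists did. Of 14 stellate cell markers 3 rose and 2 fell, of 10 T and NK cell markers 1 rose and of 8 neutrophil markers 1 rose. A single call in a list of so few genes says little about the list. Among single genes, 37.1% of all genes had groups that did not overlap. The part of any marker list in any Rab result was not tested. In whole-liver RNA a change in the number of cells of a type and a change in RNA per cell cannot be told apart.

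Of the 50 Rab genes, 9 rose and 1 fell in the injected livers. Those that rose were Rab1a, Rab17, Rab21, Rab43, Rab33b, Rab7, Rab8b, Rab30 and Rab20, and the gene that fell was Rab2b. "Rose" and "fell" are used of an adjusted p under 0.05 in the limma fit over all genes. The 9 rises are 18% of the family, where 9.99% of all genes tested rose, and the 1 fall is 2%, where 7.92% of all genes fell; in either direction 17.9% of all genes were called, and 20% of Rab genes. With arrays centred on their median the split over all genes turned from 1238 higher and 981 lower to 1060 and 1352. In that setting 9 Rab genes rose and 2 fell. When genes below the median level were left out, 30 Rab genes remained. Of these 30% rose, against 20.7% of all genes kept, and 0 fell, against 15.8%. All changes were moderate. The log2 changes of the 50 genes ran from -0.39 to 0.73, with a median of 0.03 against -0.01 over all genes, and the median size was 0.10 for the Rab genes and 0.10 for all genes. In 17 Rab genes every injected array lay above every not-injected array, and in 7 every injected array lay below. Together these 24 are 48% of the family, where 37.1% of all genes had groups that did not overlap; split by direction the shares of all genes were 18.2% higher and 18.9% lower. The SEs of the members' log2 changes had a median of 0.059 and ran from 0.041 for Rab5c to 0.175 for Rab30.

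**Figure D1:**
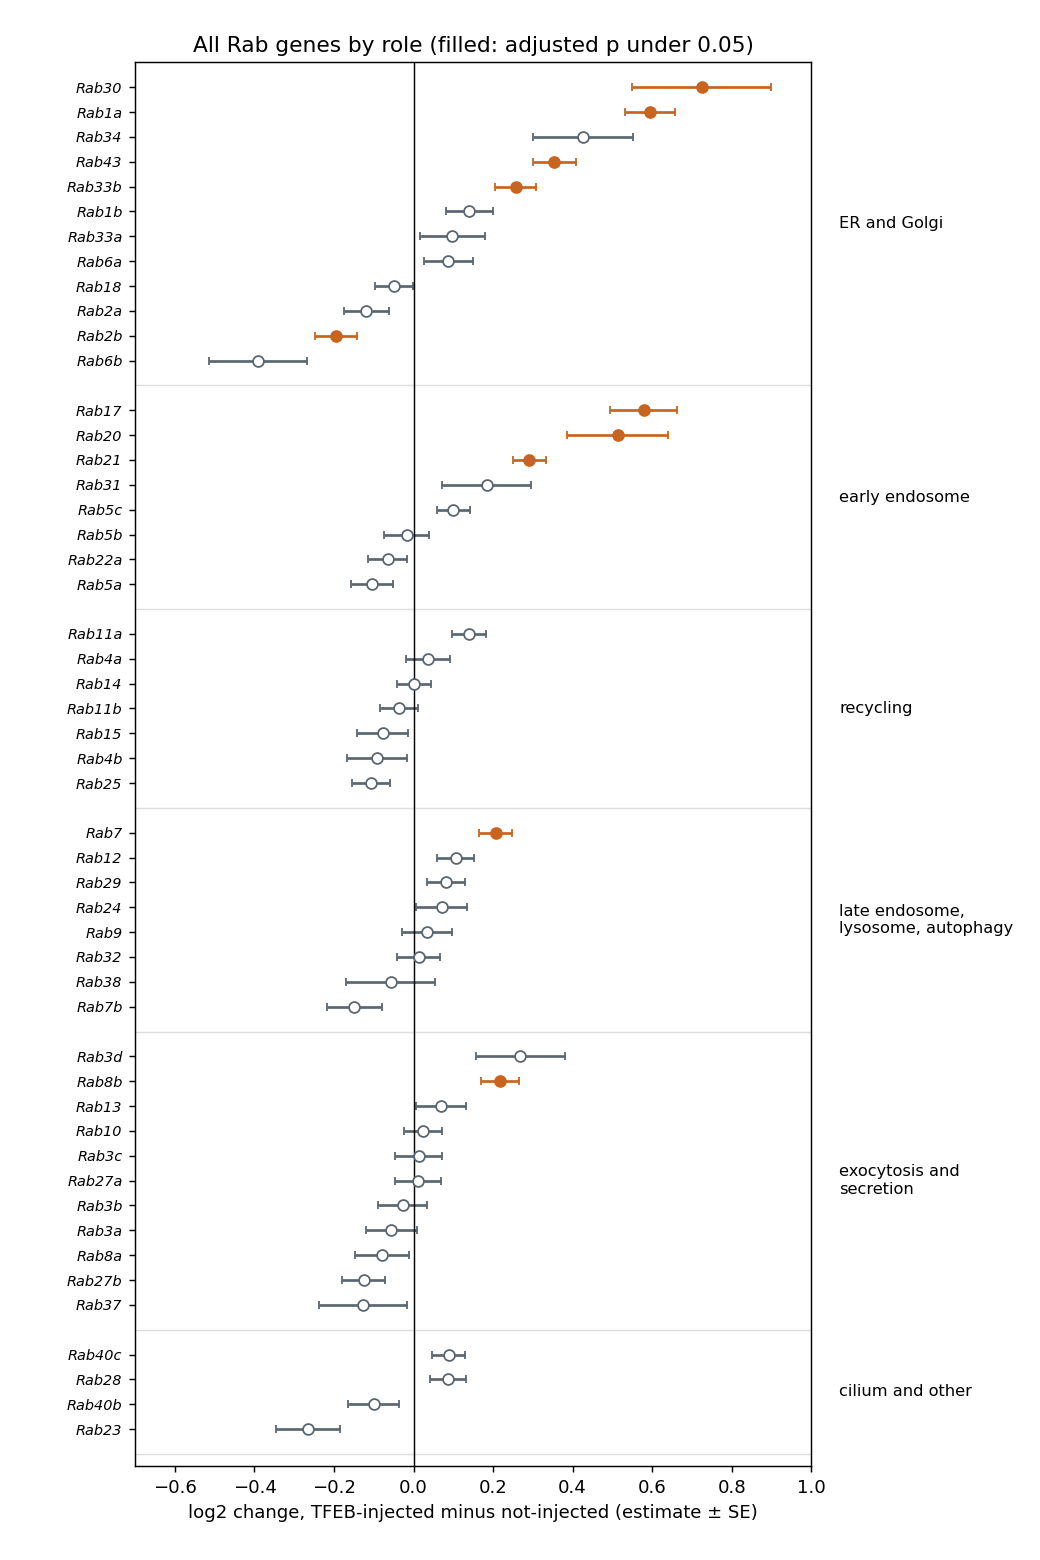
Log2 change between TFEB-injected and not-injected livers for the 50 Rab genes, each placed in a single compartment group. Points are estimates, bars are SE, and filled points have a limma adjusted p under 0.05 (n = 3 arrays per group). Rab17, also a Rab of recycling, is placed with the early endosome genes and is filled. The ER and Golgi group holds both the highest value (Rab30, 0.73) and the lowest (Rab6b, -0.39), and no gene placed in the recycling or the cilium group is filled.

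Calls lay mainly in the groups of the early secretory pathway and the early endosome. In the ER and Golgi group 4 of 12 genes rose (33.3%) and 1 fell, with a median change of 0.12. In the early endosome group 3 of 8 rose (37.5%) and 0 fell, with a median of 0.14. Over all genes 9.99% rose and 7.92% fell. Of the calls in these groups, only those of Rab1a, Rab43, Rab17 and Rab21 held without each of the 6 arrays. Of 8 genes for late endosomes, lysosomes and autophagy, 1 rose (12.5%, median 0.05). Of 11 genes for exocytosis and secretion, 1 rose (9.09%, median 0.01), and both shares are near that of all genes. None of the 7 genes placed in the recycling group passed in the main limma fit (median -0.04). Neither did any of 4 genes known for cilia or other sites (median -0.01). At an unadjusted p under 0.05 the count was 1 in each, Rab11a and Rab23. In other settings limma did call both, among them an intensity trend with a robust prior (limma adjusted p = 0.0174 and 0.0475). Array weights called both and others of these groups. An unmoderated linear model called Rab11a and Rab40c. Rab17, which also acts in recycling, was counted with the early endosome genes. The groups were not tested against each other.

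Rab1a, which organises the tethering of ER-derived vesicles at the Golgi, had the smallest p of the family. Its level was 11.72, 11.83 and 11.76 on the not-injected arrays and 12.44, 12.40 and 12.25 on the injected arrays. All injected arrays were higher, by more than the spread of either group. The means of 11.77 ± 0.05 and 12.36 ± 0.10 (SD, n = 3) gave a 1.51-fold rise (log2 change 0.59 ± 0.06 SE; limma adjusted p = 9.79e-04). A further Rab1a probe set also rose, by 0.27 ± 0.05 (adjusted p = 0.0139 over all probe sets). Its close relative Rab1b, which acts at the same step, gave 9.42, 9.35 and 9.27 against 9.43, 9.46 and 9.56. The groups are narrowly apart, with a log2 change of 0.14 ± 0.06 (adjusted p = 0.156).

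Rab43 and Rab33b are Golgi Rabs, the first at the step from the ER and the second in traffic within the Golgi and, through Atg16l1, in autophagosome formation. Rab43 stood at 8.86, 8.83 and 8.88 in not-injected and at 9.28, 9.24 and 9.12 in injected livers. It rose 1.28-fold (0.35 ± 0.06; adjusted p = 0.00476) with no overlap. The other Rab43 probe set, at a mean of 6.37 in not-injected and 6.35 in injected livers, gave -0.02 ± 0.07. Rab33b stood at 8.75, 8.73 and 8.79 and at 8.96, 9.08 and 9.001. It rose 1.19-fold (0.26 ± 0.05; adjusted p = 0.0135), again without overlap. Rab33a, its relative of nerve and immune cells, ranged from 3.83 to 4.05 and from 3.91 to 4.12, overlapping levels with a change of 0.10 ± 0.08.

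Rab30, a Golgi Rab, had the largest log2 change of the 50 genes and the widest spread. It was at 5.91, 6.01 and 5.80 in not-injected livers and at 6.24, 6.65 and 7.01 in injected livers. The injected arrays differed from each other by as much as the group means did, with an SD of 0.39 against 0.11, although none overlapped the not-injected range. The 1.65-fold rise (0.73 ± 0.17; adjusted p = 0.0279) did not hold when any single not-injected array or TFEB-injected replicate 2 was removed (adjusted p rising to 0.0903 at most).

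Rab2b, a Golgi Rab of the early secretory pathway, was the 1 member that fell. It was measured at 5.88, 5.80 and 5.85 in not-injected and at 5.61, 5.61 and 5.72 in injected livers. The change of -0.20 ± 0.05 (adjusted p = 0.0414) was 1.15-fold. Its other 4 probe sets changed by -0.14, -0.08, -0.10 and -0.10, and none of these passed. The Rab2b call held only without TFEB-injected replicate 3 when single arrays were left out, and the adjusted p was up to 0.147 otherwise. Rab2a changed by -0.12 ± 0.06 (adjusted p = 0.203), with 11.28, 11.27 and 11.28 against 11.24, 11.17 and 11.06.

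Rab34 and Rab6b, also Golgi Rabs, had larger log2 changes than Rab2b but did not pass on the lead probe set. Rab34, which positions lysosomes and is needed for cilia, gave 7.26, 7.24 and 6.82 against 7.44, 7.47 and 7.68, a change of 0.43 ± 0.13 (adjusted p = 0.0574). Not-injected replicate 3 was low on this probe set. A further Rab34 probe set gave 7.01, 7.10 and 6.97 against 7.50, 7.49 and 7.39, and rose by 0.43 ± 0.06 (adjusted p = 0.00245 over all probe sets), and the gene was called when its probe sets were averaged. Rab6b gave 5.41, 4.91 and 5.22 against 4.85, 4.66 and 4.85, a change of -0.39 ± 0.12 (adjusted p = 0.0688), with the groups apart. It was called in 4 of the alternatives, among them the replicate block and the removal of not-injected replicate 2. Rab6a, of Golgi-to-ER transport, changed by 0.09 ± 0.06 and Rab18, of the ER and lipid droplets, by -0.05 ± 0.05.

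**Figure D2:**
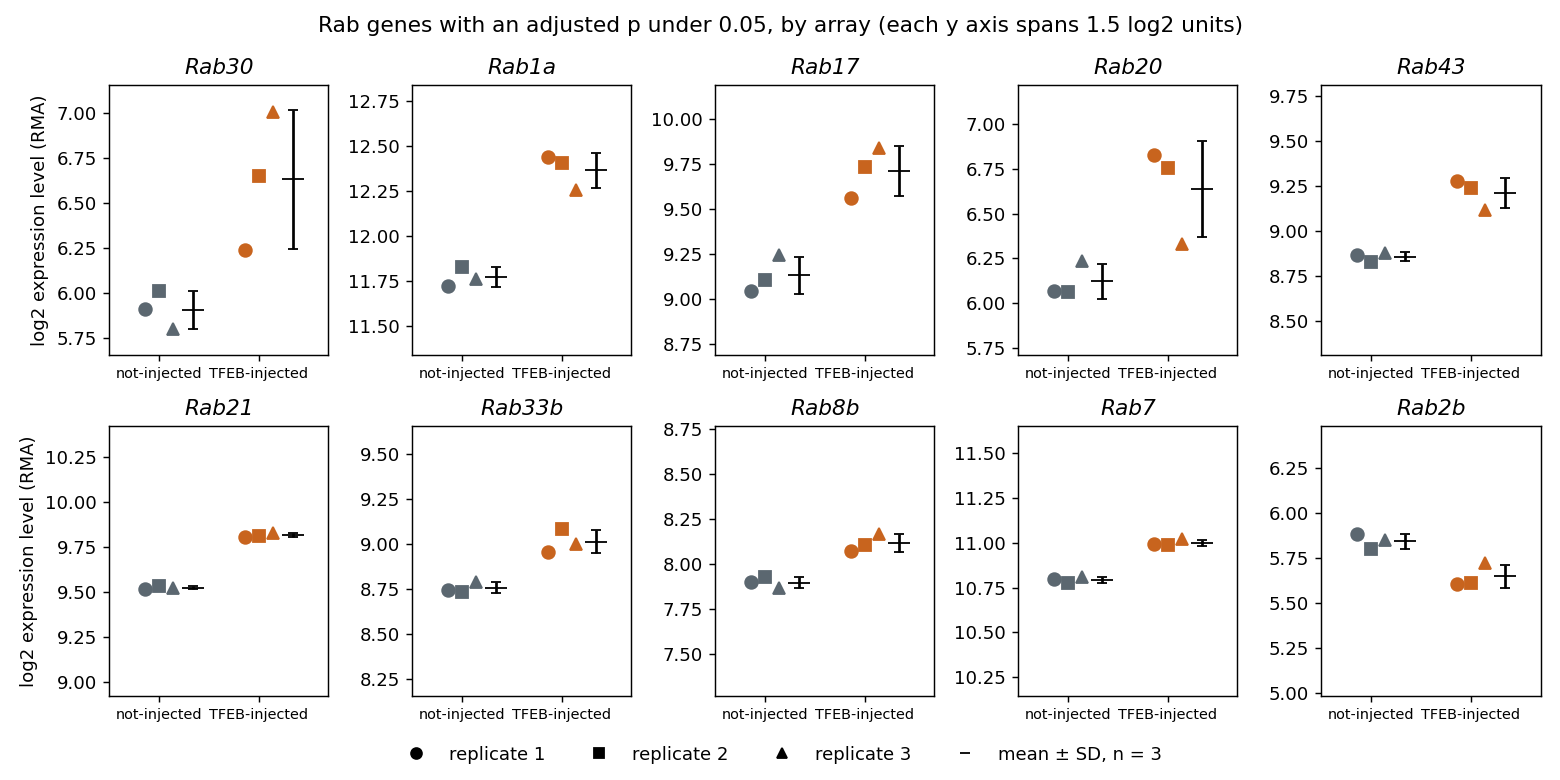
Log2 level of the 10 called Rab genes on each array (marker shape, replicate number; cross bar with whiskers, mean ± SD of 3 arrays; each y axis spans the same range of log2 units). In all 10 panels the groups do not overlap; Rab30 and Rab20 spread most within the injected group, and Rab21 and Rab7 least.

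Rab21, a Rab of early endosomes involved in integrin uptake and in autophagosome fusion with lysosomes, had one of the tightest separations. It was at 9.52, 9.54 and 9.52 in not-injected livers and at 9.81, 9.81 and 9.83 in injected livers. The SD was 0.01 in each group. The rise was 1.22-fold (0.29 ± 0.04; adjusted p = 0.00328), and a further probe set gave 0.16 ± 0.05 (adjusted p = 0.0867 over all probe sets).

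Promoters of the family were searched for the E-box CACGTG, for TCACGTG and for the CLEAR palindrome known from TFEB target genes, which is CACGTG with GT before it and AC after it. Both strands were read, and each longer motif contains the shorter ones. RefSeq promoters (GRCm38.p6, 250 bases before to 50 after a start) were held for 42 of the 50 Rab genes. The CLEAR palindrome occurred in 3 of the 42 genes (7.14%), against 0.37% of all 27025 genes with such a promoter. The 42 were all measured on the arrays, while the 27025 were not limited to measured genes. TCACGTG occurred in 4 of them (9.52%, against 4.29% of all genes) and CACGTG in 6 (14.3%, against 8.09%). Over all 32851 promoters of that length, the shares were 0.326%, 3.77% and 7.15%. The 3 genes with the full palindrome were Rab21, Rab5a and Rab24, shown here because they carry the same 10 letters and have different changes; Rab20 has the E-box alone. The motif is in capitals, and each line reads 5′ to 3′ on the gene's strand. The windows are chr10:115315592-115315683 (minus strand) for Rab21, chr17:53479077-53479206 (plus strand) for Rab5a, chr13:55321961-55321990 (minus strand) for Rab24 and chr8:11478641-11478746 (minus strand) for Rab20.
Rab21: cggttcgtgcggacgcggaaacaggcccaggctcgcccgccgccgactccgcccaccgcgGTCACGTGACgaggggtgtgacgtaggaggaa
Rab5a: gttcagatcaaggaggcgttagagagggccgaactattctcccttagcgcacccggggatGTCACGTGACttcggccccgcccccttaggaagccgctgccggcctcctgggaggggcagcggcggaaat
Rab24: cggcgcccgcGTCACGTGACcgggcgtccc
Rab20: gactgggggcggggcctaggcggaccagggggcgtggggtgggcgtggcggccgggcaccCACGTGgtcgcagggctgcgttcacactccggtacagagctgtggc

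Counting the base before the start as -1, the palindrome begins at -32 in Rab21, at -97 in Rab5a and at the first transcribed base in Rab24, and the Rab20 E-box begins at -46. Rab21 rose as given above. Rab5a, which controls fusion of early endosomes, was at 10.85, 10.84 and 10.85 against 10.80, 10.77 and 10.66, a change of -0.10 ± 0.05 (adjusted p = 0.220) with groups apart in the other direction. Rab24, linked to late steps of autophagy, gave 8.94, 8.95 and 9.10 against 8.98, 9.14 and 9.08, overlapping levels with a change of 0.07 ± 0.06 (adjusted p = 0.516). The promoters held for Rab1a, Rab17, Rab33b, Rab43, Rab7, Rab8b and Rab2b had none of the 3 motifs in these windows, and for Rab30 no promoter was used here. The E-box was also found in Rab23 and Rab27a, neither of which was called. A match is only a description of the sequence.

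Rab17, an epithelial Rab of recycling and transcytosis in polarised cells such as hepatocytes, rose 1.49-fold. It was measured at 9.04, 9.10 and 9.24 in not-injected and at 9.56, 9.73 and 9.84 in injected livers. The groups were apart (0.58 ± 0.08; adjusted p = 0.00363). Its other probe set rose by 0.31 ± 0.05 (adjusted p = 0.00636 over all probe sets).

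Rab20, found on early endosomes and phagosomes, rose 1.43-fold with uneven injected arrays. It was at 6.07, 6.06 and 6.24 in not-injected livers and at 6.83, 6.75 and 6.33 in injected livers. TFEB-injected replicate 3 lay just above not-injected replicate 3, and the other injected arrays were clearly higher. The call (0.51 ± 0.13; adjusted p = 0.0314) was lost when any 1 array other than TFEB-injected replicate 3 was left out (adjusted p up to 0.113). The macrophage markers also shifted least in TFEB-injected replicate 3, with a median shift of 0.31 there against 0.57 and 0.52 in replicates 1 and 2. This order is not particular to Rab20. Rab1a and Rab43 also rose least on that array, while Rab17, Rab21, Rab7, Rab8b and Rab30 rose most there. The part of the macrophage markers in the Rab20 result was not tested.

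The remaining early endosome genes did not pass in the main fit. Rab5c was at 10.05, 10.06 and 10.06 against 10.17, 10.15 and 10.16, a change of 0.10 ± 0.04 (adjusted p = 0.144) with groups apart. It was called in 3 of the alternatives: genes below the median level left out, array weights and the unmoderated model. Rab5b changed by -0.02 ± 0.06 and Rab31, a Rab of Golgi-to-endosome transport, by 0.18 ± 0.11. Rab22a, which acts in endosome sorting, gave -0.07 ± 0.05 on its lead probe set. Another Rab22a probe set was at 8.30, 8.26 and 8.29 against 8.54, 8.53 and 8.56 and rose by 0.26 ± 0.05 (adjusted p = 0.00767 over all probe sets), so the probe sets of this gene disagree.

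Rab7, the Rab of late endosomes and lysosomes that brings in the machinery for their transport and fusion, rose by a small amount with little spread. The not-injected arrays gave 10.79, 10.78 and 10.81 and the injected arrays 10.99, 10.99 and 11.02. The groups were well apart for their SDs of 0.02 each, and the rise was 1.15-fold (0.21 ± 0.04; adjusted p = 0.0146). A further probe set gave 0.21 ± 0.06 (adjusted p = 0.0653 over all probe sets). Removing replicate 1 or 2 of the not-injected livers, or replicate 2 of the injected livers, ended the call (adjusted p at most 0.0601), as did the replicate block (0.0593). Rab7b, a late-endosome relative, was at 6.29, 6.12 and 6.13 against 6.09, 6.06 and 5.94, a change of -0.15 ± 0.07 (adjusted p = 0.186).

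The other genes of late endosomes, lysosomes and autophagy did not pass. Rab12 (0.11 ± 0.05), which directs recycling receptors to lysosomes, and Rab29 (0.08 ± 0.05), of the Golgi and stressed lysosomes, had all injected arrays above all not-injected arrays. Rab9, for transport from late endosomes to the Golgi, gave 10.70, 10.66 and 10.74 against 10.63, 10.73 and 10.84, overlapping levels with a change of 0.03 ± 0.06. Rab32 (0.01 ± 0.05) and Rab38 (-0.06 ± 0.11), the pair of lysosome-related organelles, overlapped between groups.

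Rab8b, which acts in traffic to the cell surface, was the 1 exocytic Rab gene that rose. Its arrays gave 7.90, 7.92 and 7.86 against 8.07, 8.10 and 8.17. The groups did not overlap and the rise was 1.16-fold (0.22 ± 0.05; adjusted p = 0.0194). A further Rab8b probe set, with a mean of 4.29 in not-injected and 4.28 in injected livers, gave -0.01 ± 0.08, and the mean of both probe sets did not pass (adjusted p = 0.268). The call also ended when any single not-injected array or TFEB-injected replicate 2 was removed (adjusted p at most 0.0718). Rab8a was at 9.72, 9.72 and 9.69 against 9.65, 9.75 and 9.50, with overlap and a change of -0.08 ± 0.07. Rab10, for insertion of membrane proteins such as glucose transporters, changed by 0.02 ± 0.05 and the secretory granule gene Rab3d by 0.27 ± 0.11 (adjusted p = 0.153). The other 7 exocytic genes, Rab3a, Rab3b, Rab3c, Rab13, Rab27a, Rab27b and Rab37, changed by -0.13 to 0.07, and all overlapped between groups.

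The recycling Rab with the smallest p was Rab11a, which returns receptors to the surface and supports bile canaliculus formation. It was at 10.84, 10.82 and 10.85 against 11.00, 10.97 and 10.96. The groups were apart, and the change of 0.14 ± 0.04 did not pass in the main fit (adjusted p = 0.0622). Rab11a was called in 4 of the alternatives, among them an intensity trend with a robust prior and the unmoderated model. A further Rab11a probe set gave 0.00 ± 0.05. Rab14, between Golgi and endosomes, had nearly equal means of 12.03 in both groups (0.00 ± 0.04). Its 5 further probe sets gave changes from -0.30 ± 0.10 to 0.02 ± 0.08, and none passed. Rab4a, Rab4b, Rab11b, Rab15 and Rab25 lay between -0.11 and 0.04. In the remaining group the smallest p was that of Rab23, a regulator of ciliary Hedgehog signalling, at 7.36, 7.39 and 7.59 against 7.07, 7.20 and 7.27. The groups were apart at -0.27 ± 0.08 (adjusted p = 0.0623), while a further Rab23 probe set gave 0.07 ± 0.09. Rab23 was called lower in 5 of the alternatives, among them removal of TFEB-injected replicate 3, median centring and the replicate block. The other members of that group, Rab28, Rab40b and Rab40c, changed by 0.09 ± 0.05, -0.10 ± 0.06 and 0.09 ± 0.04.

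Called genes were set against uncalled genes of the same number, as the per-array difference of their log2 levels. The 5 pairs were each compared by a two-sided exact permutation test, which with 3 arrays against 3 cannot give a p under 0.10. For Rab1a against Rab1b the difference grew by 0.45 in the injected group, for Rab7 against Rab7b by 0.36 and for Rab8b against Rab8a by 0.30. In these 3 pairs the groups did not overlap, so the exact permutation p of 0.10 is the smallest possible (0.167 adjusted over the 5 pairs). For Rab33b against Rab33a (0.16) and Rab2b against Rab2a (-0.08) the groups overlapped (exact permutation p = 0.40 and 0.50). The pairs were chosen because 1 gene was called, so these values are a description.

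Probe sets of the same gene were compared in the 27 Rab genes that had several. Of their 45 further probe sets, 4 rose and 0 fell, those of Rab1a, Rab17, Rab34 and Rab22a. Counting all 95 Rab probe sets, 14 were called, where 15.4% of all 20380 probe sets were (8.34% higher and 7.03% lower). In 13 genes at least 1 further probe set had the opposite sign to the lead, Rab43 and Rab8b among the 7 called genes with more than 1.

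**Figure D3:**
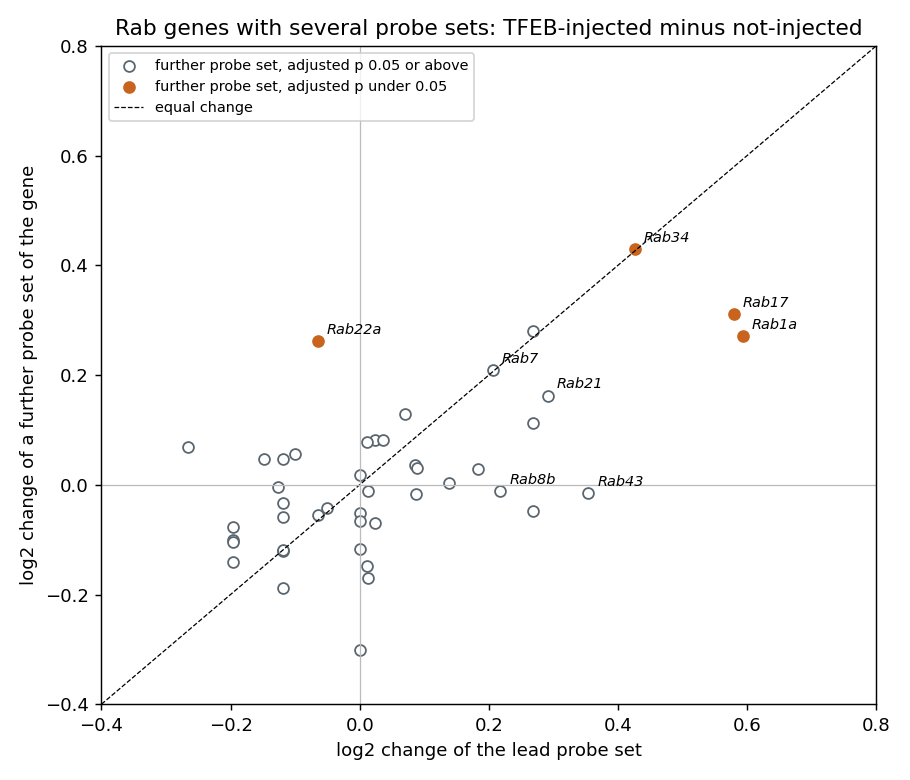
Log2 change of each further probe set (y axis) against that of the lead probe set of the same Rab gene (x axis); each point is 1 of 45 further probe sets, filled where its adjusted p over all probe sets was under 0.05, and the dashed line marks equal change. Rab1a and Rab17 lie below the line but are filled, Rab43 and Rab8b lie near 0 on the y axis, and Rab22a is filled with a lead probe set below 0.

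Leaving out 1 array at a time separated the called genes. Rab1a, Rab17, Rab21 and Rab43 kept their calls without each of the 6 arrays, with adjusted p up to 0.00829, 0.0218, 0.0216 and 0.0289. The other 6 genes lost theirs without at least 1 array; for Rab33b these were replicates 1 and 2 of the not-injected group and replicate 2 of the injected group (adjusted p at most 0.0599). The number of Rab genes that rose was 4 without replicate 1 or 2 of the not-injected group or replicate 2 of the injected group, which is 8% of the family. All genes that rose then made up 6.02%, 6.46% and 5.83%.

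**Figure D4:**
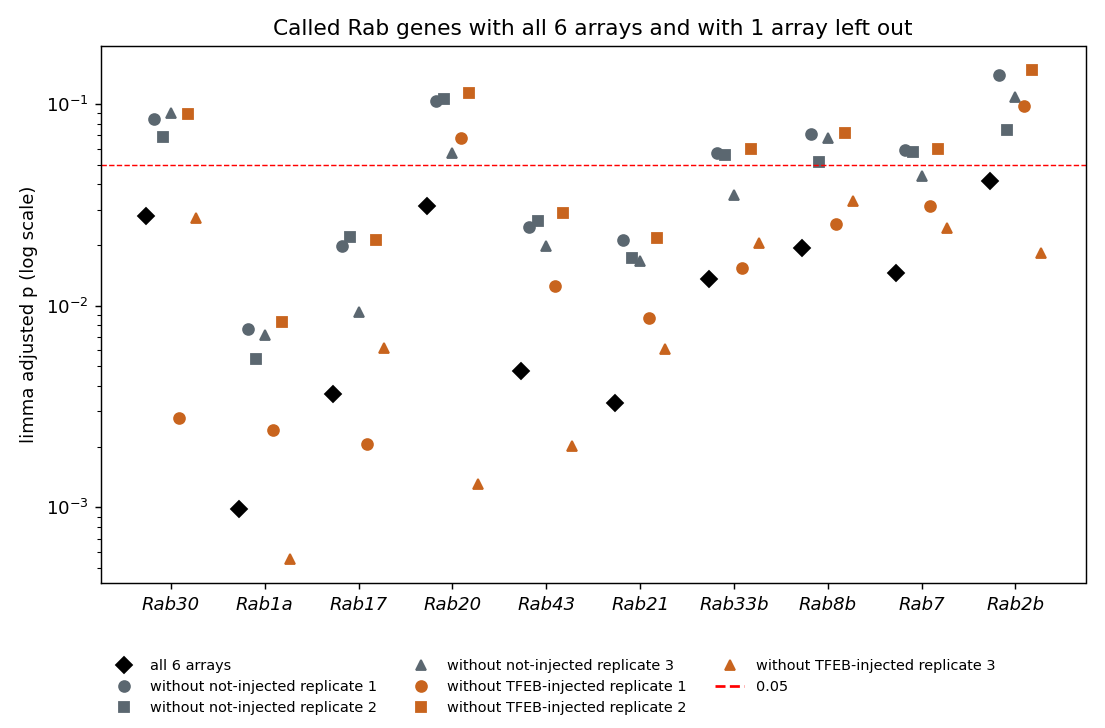
Limma adjusted p (log scale) of the 10 called Rab genes with all 6 arrays (diamonds) and with 1 array left out (other markers); the dashed line is 0.05. All markers of Rab1a, Rab17, Rab43 and Rab21 lie below the line, and each other gene has at least 3 markers above it.

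Genes that act on Rabs were read from lists. Of 28 genes for exchange factors, which switch Rabs on, 8 rose and 0 fell, with a median change of 0.07. The rises are 28.6% of this list, against 9.99% of all genes. When genes below the median level were left out, 20.7% of all genes kept rose. The list of 28 was not cut in that way and holds genes below that level, so the 28.6% cannot be set against that share. The largest change among them was in Hps4, for a subunit of the exchange factor of Rab32 and Rab38, at 8.11, 8.09 and 8.02 against 9.01, 9.20 and 9.60. Every injected array was higher, and the 2.29-fold rise (1.20 ± 0.14; adjusted p = 0.00138) exceeded that of any Rab gene, while Rab32 and Rab38 themselves were not called. Dennd4c, for an exchange factor of Rab10, rose by 0.55 ± 0.05 (adjusted p = 4.31e-04). The other 6 that rose were Rab3ip, Dennd2d, Dennd5a and the TRAPP complex genes Trappc3, Trappc2l and Trappc6a. The number of rises was 3 on removal of not-injected replicate 1 or TFEB-injected replicate 2, and 5 on removal of not-injected replicate 2 or 3; 1 gene fell on removal of TFEB-injected replicate 1.

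Of 20 genes listed for GTPase-activating proteins, the class that switches Rabs off, or for a TBC domain alone, 5 rose and 2 fell (median 0.06). These are 25% and 10% of the list, against 9.99% and 7.92% of all genes. Tbc1d24 (0.37 ± 0.05; adjusted p = 0.00218) and Tbc1d8 (0.34 ± 0.05) rose. Evi5 (-0.20 ± 0.04) and Rabgap1l (-0.23 ± 0.06) fell, but each call ended on removal of any 1 array other than TFEB-injected replicate 3 (adjusted p at most 0.0849 and 0.147). The 5 rises became 2 on removal of not-injected replicate 1 or TFEB-injected replicate 2, and 3 on removal of either other not-injected array.

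Of 35 genes listed for effectors or other Rab partners, 4 rose and 5 fell (median 0.00). Among the falls was the kinase gene Lrrk1 (-0.30 ± 0.08, limma adjusted p = 0.0377). These are 11.4% and 14.3% of the list, against 9.99% and 7.92% of all genes. Rilpl2, for a protein that binds Rabs at the cilium and on lysosomes, rose by 0.43 ± 0.05 (adjusted p = 0.00180) and Rufy1, for a Rab4 and Rab14 effector of endosomes, by 0.29 ± 0.05. Osbpl1a, for a Rab7 effector that senses cholesterol, fell by 0.26 ± 0.04 on the log2 scale (adjusted p = 0.00694). Myo5b, for the motor that carries Rab11 vesicles, fell by 0.31 ± 0.07, a call that ended on removal of any single not-injected array or TFEB-injected replicate 2 (adjusted p at most 0.0742). The 5 falls were 1 without each of those 4 arrays and 3 without TFEB-injected replicate 1, and the 4 rises were 2 without not-injected replicate 1. Of 7 genes for the lipid modification and membrane extraction of Rabs, 1 fell and 0 rose (median 0.03). The fall is 14.3% of the list, against 7.92% of all genes. The gene that fell was Rabggta, for a subunit of the enzyme that attaches the lipid anchor. It was at 8.74, 8.75 and 8.69 against 8.52, 8.45 and 8.42, with no overlap and a change of -0.26 ± 0.05 (adjusted p = 0.00967). Without TFEB-injected replicate 3, 1 gene of this list rose.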

How the data were processed

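The deposited values are log2 expression levels per probe set, which the authors made with RMA in the affy package, per the submitters' processing notes; those notes name no version. RMA equalises the arrays' distributions, so overall shifts in RNA content cannot be seen, and it compresses changes of dim genes. No detection calls were used, and 20 of the 50 Rab lead probe sets, among them those of Rab2b, Rab20 and Rab30, lay below the median level of all genes (7.34). Array medians were 6.92 to 6.93; the number of arrays limits the precision.

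Of 22690 probe sets, 64 were controls; 20393 had 1 gene symbol, 691 several and 1606 none in the platform annotation, which can be old. After controls were left out, 20380 probe sets for 12393 genes were tested, without a filter on low values, so all 50 Rab genes were tested. Lead probe sets of Rab2a, Rab4a and Rab14 are of the _s_at or _x_at kind and can detect related sequences. limma 3.58.1 (R 4.3.3; lmFit, eBayes) compared injected with not-injected arrays, with p-values adjusted by Benjamini-Hochberg across the 12393 genes and called under 0.05. On simulated data for this comparison with 200 of 12393 genes changed, it recovered 96.5% at a log2 change of 1, 77.0% at 0.5 and 0% at 0.25. In the data 2219 genes were called, and the Benjamini-Hochberg cut-off is less strict when more genes change. The simulated shares are therefore not those of the data, where Rab7, Rab8b and Rab2b were called at changes smaller than 0.25.

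The members and lists were chosen with earlier results of these data known. Text names Tfeb, Ppara, every called Rab gene and same-number relatives, the smallest p of a role group without a call, and from regulator lists the 2 called genes of smallest p in each direction; other Rab genes, and the further probe sets of Rab22a and Rab34, were chosen for naming after seeing their values. Alternatives tried were other probe set choices, scalings, filters, variance models, thresholds, a replicate block and leaving out each array. Figures were drawn with matplotlib 3.10.9 (Python 3.11.15).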

Additional observations from a re-analysis of the deposited data

How the results depend on the processing

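The count of Rab genes that rose (9) and fell (1) was recomputed under each alternative, as was the count of all genes called (2219). Leaving out 1 array gave 4 to 9 rises, 0 to 2 falls and 1229 to 2409 genes in all. At an adjusted p under 0.01 the counts were 4, 0 and 1053. At 0.10, 3 Rab genes fell. Array weights gave 19 rises, 11 falls and 5854 genes; the weighting stopped before it converged and set TFEB-injected replicate 2 at 16.3 and replicate 3 at 0.24. No Rab gene fell (0) when probe sets of a gene were averaged, with cyclic loess, with an unmoderated model, or when genes below the median level, Rab2b among them, were left out. There were 2 falls with arrays centred on their median and with an intensity trend and robust prior, the latter without Rab2b. Median centring also turned the split of all called genes from 1238 higher and 981 lower to 1060 and 1352, while 9 Rab genes still rose. The calls of Rab1a, Rab17, Rab21 and Rab43 held under each of these alternatives. Rab8a and Rab33a, neither called, changed sign under array weights (0.03 and -0.04). The replicate numbers did not pair the arrays. Deviations of same-numbered arrays from their group means correlated at 0.011, -0.134 and -0.108 over genes, and no array correlated best with its own number. With the replicate block, 6 Rab genes rose, 2 fell and 1533 genes were called in all.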
